A study of Eragrostis tef with 16 samples.

Results

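Among the 68255 tef genes counted in these data, 169 had lower counts in shoots at low Ca2+ and a root ratio near 1 by the rule below. They were chosen from the measured values by a rule on CPM, the count of a gene scaled to 1000000 counts in its library. The rule asked for a mean of at least 5 CPM in control shoots, for every low Ca2+ shoot library to lie below every control shoot library, for a shoot ratio of at most 0.5 and for a root ratio between 0.67 and 1.5. A ratio is the mean CPM at low Ca2+ over the mean CPM of the control, with 0.5 CPM added to each. In genes nearly absent from roots, this addition holds the root ratio near 1. The list was to hold at most 200 genes, but only 172 met all conditions, and 3 of these were set aside because the study names them as calcium transport or signaling genes. The values that chose the genes are therefore a description here and carry no test.

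Tef (Eragrostis tef) plants of a single accession, picked by the study for its high seed Ca, were grown hydroponically in a modified Hoagland solution for about a month, and roots and shoots were sequenced separately. The groups were low Ca2+ shoots (LCS, 0.01 mM Ca2+), control shoots (ConS, 1 mM Ca2+), low Ca2+ roots (LCR, 0.01 mM Ca2+) and control roots (ConR, 1 mM Ca2+), with 4 libraries each that the study describes as independent biological replicates. In the solution of all groups, the calcium nitrate of the standard recipe was replaced with ammonium nitrate. Libraries are named by their S numbers, S5 to S8 for LCS, S13 to S16 for ConS, S1 to S4 for LCR and S9 to S12 for ConR.

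Calcium moves into the shoot with the xylem stream and is hardly remobilised through the phloem, so that young leaves depend on a steady supply from the root. In the cell wall it crosslinks pectin, and inside the cell it acts as a second messenger that is read by calcium-binding proteins and by calcium-dependent protein kinases, while calcium ATPases and exchangers clear it from the cytosol. The shoots were whole organs, so fewer cells of a type and less RNA per cell cannot be told apart in these counts.

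Total counts per library ran from 9959542 to 11720368 in LCS, from 14640539 to 15590039 in ConS, from 6276818 to 10166944 in LCR and from 11587068 to 17659238 in ConR. Each low Ca2+ group had lower totals than the control of its tissue in every library (p = 0.0286 in a two-sided exact permutation test, which cannot give a lower p with 4 libraries a group). The part of this difference in depth in the results was not tested beyond the thinned counts given in the closing section. The 169 genes had at least 4 reads in every shoot library, and 30 of them had no read in at least 1 root library. Within LCS, libraries S6 and S8 stood apart from S5 and S7 for these genes, as described below.

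The file pairs no gene with a name and no annotation was used, so the roles of the 169 genes are not given and only 3 of them are printed by identifier. The identifiers carry a chromosome number and the letter A or B of the subgenome, tef being an allotetraploid. Of the 169 genes, 74 (43.8%) had an A identifier and 82 (48.5%) a B identifier, against 49.7% and 49.8% of the 21351 genes with at least 5 CPM in ConS. The remaining 13 genes (7.69%) had an identifier marked Un in place of a chromosome, against 99 genes (0.464%) in that wider set. Over the numbered chromosomes, the share of the list ran from 4.73% on chromosomes 8 and 10 to 14.2% on chromosome 3, and the largest gap to the wider set was on chromosome 1, with 12.4% against 16.2%.

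The rule narrowed the table in steps. Of the 21351 genes with at least 5 CPM in ConS, 2214 had every LCS library below every ConS library, and 234 of these also had a shoot ratio of at most 0.5. Of the 234 genes, 58 were left out because their root ratio was below 0.67 and 4 because it was above 1.5. The limit on the ratio cut through a dense range, since the highest shoot ratio in the list was 0.499, the nearest gene outside lay just above 0.5, and 139 genes missed only this limit with a ratio of up to 0.55. The nearest genes on either side of the lower root limit had ratios of 0.672 inside and 0.667 outside. At the upper root limit these were 1.42 inside and 1.57 outside. The lowest ConS mean in the list was 5.03 CPM, and the nearest of 45 genes that missed only this minimum had 4.92 CPM.

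**Figure D1:**
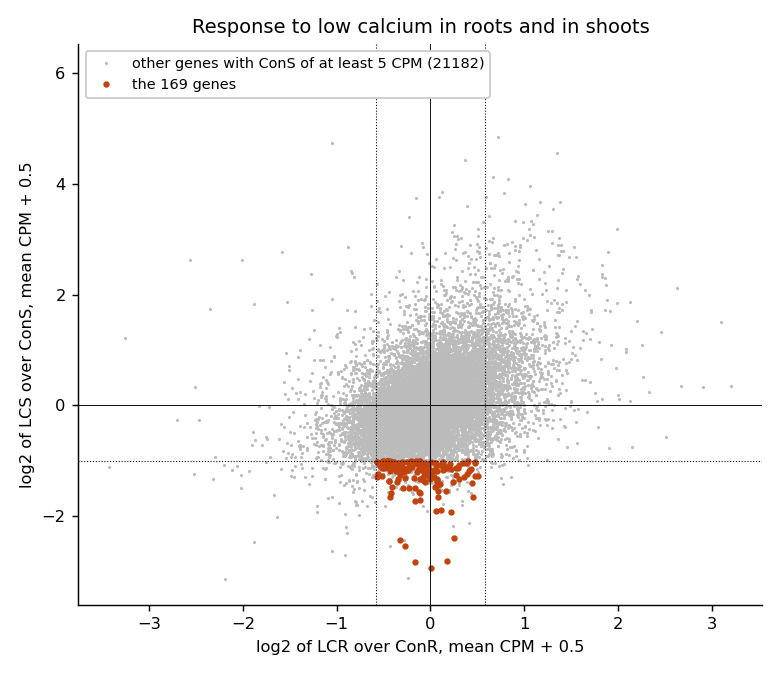
Each point is a gene with at least 5 CPM in ConS; the x axis is the log2 ratio of LCR over ConR and the y axis the log2 ratio of LCS over ConS, both on mean CPM + 0.5, with the 169 genes in red and the rule's limits on the ratios dotted. The 169 genes lie along the lower edge, most of them close to the limit (88 with a shoot ratio above 0.45), and 6 genes with a ratio below 0.25 lie apart from the rest.

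The fall in shoots was mostly close to the limit. The shoot ratio had a median of 0.451 over the 169 genes, with 88 genes above 0.45, 75 between 0.25 and 0.45 and 6 below 0.25. Over all 21351 genes with at least 5 CPM in ConS the median was 0.978. The median gene level was 14.1 CPM for LCS and 33.6 CPM for ConS, with ranges of 1.32 to 344 CPM for LCS and 5.03 to 766 CPM for ConS. In 41 genes the LCS mean was below 5 CPM. The median ratio was 0.444 for the 28 genes with 5 to 10 CPM in ConS, 0.453 for the 110 genes with 10 to 100 CPM and 0.448 for the 31 genes with 100 CPM or more.

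The lowest ratio was that of Et_3B_029198. It had 7.83, 6.36, 11.9 and 4.82 CPM in LCS S5 to S8, against 78.9, 68.5, 61.1 and 44.1 CPM in ConS S13 to S16. In roots it was close to the detection limit, with 0.478, 1.13, 0.393 and 0.225 CPM in LCR S1 to S4 and 0.401, 0.453, 0.914 and 0.432 CPM in ConR S9 to S12. The highest LCS library was thus far below the lowest ConS library, and the root libraries overlapped. The means were 7.74 ± 3.06 CPM in LCS and 63.2 ± 14.6 CPM in ConS (SD, n = 4), a ratio of 0.129, from 342 reads in LCS and 3782 reads in ConS.

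The largest loss in CPM was that of Et_4B_038547, the most abundant gene of the list in ConS. It had 397, 250, 535 and 195 CPM in LCS S5 to S8, against 936, 675, 876 and 577 CPM in ConS S13 to S16. LCS S7 came close to ConS S16, and LCS S8 had the lowest value. The means were 344 ± 153 CPM in LCS and 766 ± 168 CPM in ConS (SD, n = 4), a loss of 421 CPM at a ratio of 0.45. The same gene had the lowest level in control roots relative to control shoots, 3.26 ± 0.887 CPM in ConR against 766 CPM in ConS. In low Ca2+ roots it had 4.58 ± 0.424 CPM, a root ratio of 1.35.

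The gene at the median of the shoot ratio had 30.5, 46.9, 40.3 and 34.8 CPM in LCS S5 to S8, against 66.8, 55.9, 119 and 98.5 CPM in ConS S13 to S16. Here the LCS libraries lay close together, while the ConS libraries spread over a range in which S15 was highest. In roots the means were 28.3 ± 10.2 CPM in LCR and 30.7 ± 5.94 CPM in ConR (SD, n = 4), a root ratio of 0.925. Its root level was thus far above the median of the list, and its order of LCS libraries was shared by only 5 of the 169 genes.

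In most of the 169 genes the gap between the shoot groups was narrow. The highest LCS library over the lowest ConS library, each with 0.5 CPM added, had a median of 0.813, and in 41 genes it was above 0.9. In 9 genes it was at most 0.5. These 9 genes had LCS means of 1.73 to 57.3 CPM and ConS means of 5.79 to 312 CPM, and 4 of them had Un identifiers. The 6 genes with a ratio below 0.25 were nearly absent from roots, with LCR means of 0.116 to 2.78 CPM and ConR means of 0.0675 to 3.61 CPM, and 3 of them had Un identifiers.

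**Figure D2:**
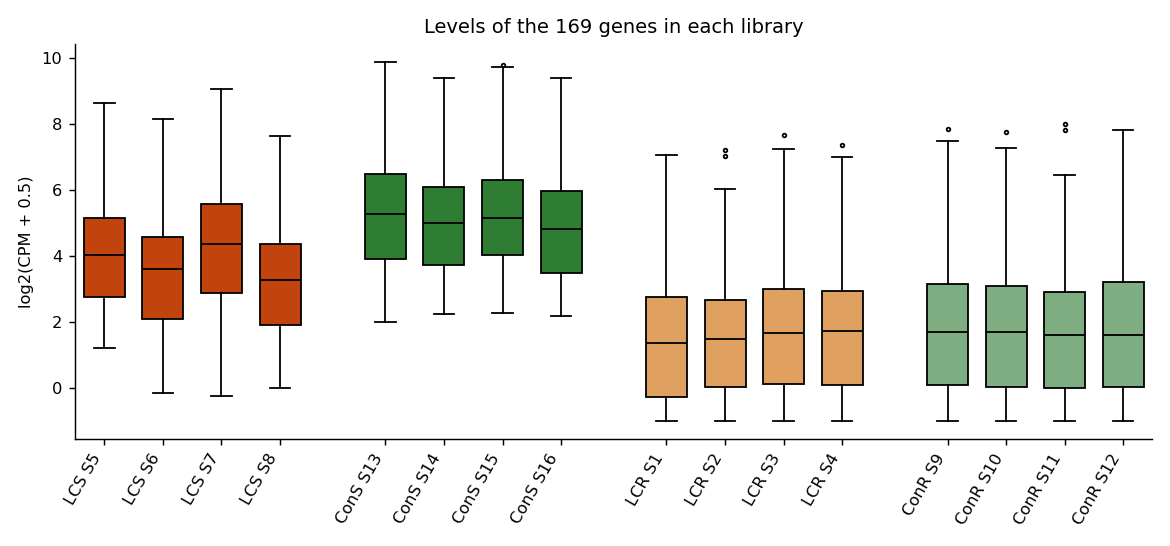
Boxes show the log2(CPM + 0.5) of the 169 genes in each of the 16 libraries, with the median as a line, the quartiles as box edges and whiskers of up to 1.5 times the box; groups are coloured and ordered LCS, ConS, LCR, ConR. The median gene had 9.04 to 20.1 CPM in the LCS libraries and 27.6 to 37.9 CPM in the ConS libraries, while the root medians all lay between 2.07 and 2.81 CPM.

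The sum over the 169 genes was lower at low Ca2+ in shoots and, by less, in roots. It was 5678, 4017, 7317 and 3186 CPM in LCS S5 to S8, against 13454, 10723, 13230 and 10019 CPM in ConS S13 to S16. Within LCS, S7 had the highest sum and S8 the lowest. In roots the sum was 1087, 1175, 1444 and 1272 CPM in LCR S1 to S4, against 1552, 1454, 1647 and 1627 CPM in ConR S9 to S12. The sums did not overlap between the groups of either tissue, with LCR S3 and ConR S10 next to each other. In roots the mean sum was 1245 CPM in LCR and 1570 CPM in ConR.

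Counts were also fitted with edgeR over all 16 libraries and 56746 genes, with calls at a Benjamini-Hochberg adjusted p below 0.05. In LCS vs ConS, 167 of the 169 genes were called lower, beside 9.04% of all genes tested, and none higher, beside 16.7%. All 169 had an unadjusted p below 0.05. Their median log2 fold change was -1.39, against 0.11 over all genes tested. All 169 genes had non-overlapping shoot libraries by the rule, beside 4.68% of all genes tested. These counts follow from the rule, and nothing is read from them. Without both LCS S6 and LCS S8, an alternative added after seeing the data, 101 of the 169 genes were called lower, beside 0.985% of all genes, and their median log2 fold change was -1.0. That fit held fewer LCS libraries, and a smaller fall and a weaker test cannot be told apart in the lost calls.

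The 4 LCS libraries differed from each other in a way that most of the 169 genes shared. The rule chose the genes on these same libraries, so the shares set beside the wider set are a description. Relative to the ConS mean, the median log2 ratio over the 169 genes was -1.0 in LCS S5, -1.51 in LCS S6, -0.70 in LCS S7 and -1.80 in LCS S8. Over all 21351 genes with at least 5 CPM in ConS the medians were -0.01, -0.11, -0.07 and 0.02 in the same libraries. LCS S8 was the lowest LCS library for 123 of the 169 genes and LCS S7 the highest for 124. Of the wider set, 21.5% had LCS S8 lowest and 23.4% had LCS S7 highest. The full order S8, S6, S5, S7 from low to high was seen in 94 genes (55.6%), against 8.34% of the wider set.

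In 140 of the 169 genes (82.8%), LCS S6 and LCS S8 both lay below LCS S5 and LCS S7, against 25.4% of the wider set. The opposite arrangement was found in 5 genes of the list and in 22.3% of the wider set. On TMM-scaled totals, a scaling that sets aside the most abundant and most changed genes and was tried here after seeing the data, the arrangement again held in 140 genes (82.8%), against 35.7% of the wider set. The medians then were -1.23 in LCS S5, -1.65 in LCS S6, -0.78 in LCS S7 and -2.23 in LCS S8. Over the wider set the TMM-scaled medians were -0.21, -0.23, -0.14 and -0.38 in the same libraries, with S8 lowest there too. The spread within LCS, whose values the rule used, was accordingly wide. The coefficient of variation had a median of 38.9% in LCS and 21.1% in ConS over the 169 genes, and of 19.9% in LCS and 18.6% in ConS over the wider set. What set S6 and S8 apart from S5 and S7 is not given in the labels, and its part in the fall was not tested.

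**Figure D3:**
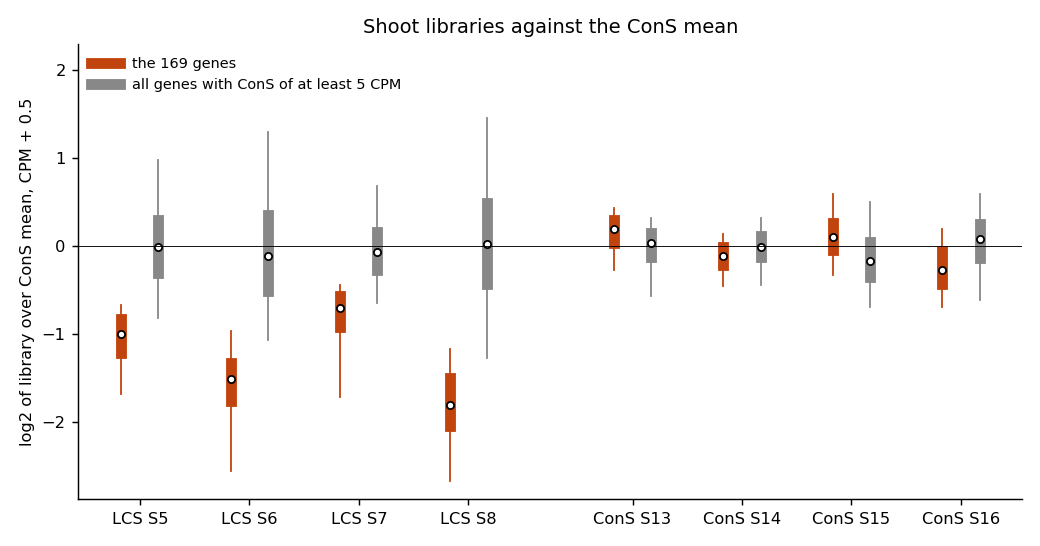
For each shoot library, the bar spans the middle 50% of genes, the thin line the 5th to the 95th percentile and the circle marks the median of log2(library over ConS mean), on CPM + 0.5, for the 169 genes in red and all genes with at least 5 CPM in ConS in grey. The red medians lie at -1.0, -1.51, -0.70 and -1.80 in LCS S5 to S8, while all grey medians lie near 0 on this CPM scale.

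Control shoots, whose values the rule used as well, also had an order, though a weaker one. ConS S16 was the lowest ConS library for 106 of the 169 genes, with a median log2 ratio to the ConS mean of -0.27, and ConS S13 was the highest for 82, with 0.19. Of the wider set, 21.6% had ConS S16 lowest, 40.4% had it highest and 25.8% had ConS S13 highest. The lowest control library and the highest low Ca2+ library (LCS S7) thus set the margin of the rule in many genes. The highest over the lowest library of a gene had a median of 2.32 in LCS and 1.56 in ConS over the list, and of 1.54 in LCS and 1.51 in ConS over the wider set.

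The list depended on single shoot libraries. Applied again without LCS S8, the rule found 98 genes, of which 93 were among the 169. Without ConS S16 it found 196 genes, of which 100 were among the 169. With named genes set aside, 196 lies so close to the limit of 200 genes that the limit may have been reached. The same holds without LCS S5 (196 genes), LCS S7 (198) or ConS S14 (197). In these runs, listed genes may have given way to genes with lower shoot ratios. Such losses were not separated from failures of the rule. The other omissions of 1 library left 117 to 165 of the 169 genes in the list. With the 16 libraries left out in turn, 57 genes (33.7%) were chosen each time, a count that the limit may have lowered. Without both LCS S6 and LCS S8 (added after seeing the data), 49 of the 169 genes were chosen among 112. With CPM on TMM-scaled totals 162 of the 169 genes were chosen again, and with DESeq2 size factors 151. Each of these lists held 197 genes, also close to the limit.

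In roots the LCR and ConR means of a gene lay close together once 0.5 CPM was added, as the rule required. In 54 genes both root means were below 1 CPM, where the ratio says little about a change in roots. The root ratio had a median of 0.911 and was below 1 in 115 genes and above 1 in 54. It was below 0.8 in 54 genes. Over the wider set of genes with at least 5 CPM in ConS, its median was 0.923 and its lower quartile 0.795. The median of the list was thus near that of the wider set. The mean root level had a median of 2.66 CPM in LCR and 2.89 CPM in ConR. Every LCR library lay below every ConR library in 10 genes, beside 5.87% of all genes tested, and above it in 2 genes, beside 9.06%.

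In LCR vs ConR, edgeR called none of the 169 genes at an adjusted p below 0.05, beside 3.23% of all genes tested. At an unadjusted p below 0.05 it found 5, beside 20.7% of all genes. DESeq2 and limma-voom also called 0 of them, beside 8.11% of all genes with DESeq2 and 5.24% with limma-voom. With only the 8 root libraries in the fit edgeR called 2 of the 165 that were tested, beside 8.17%. The median log2 fold change was -0.21 over the 169 genes and 0.03 over all genes tested. The rule bounded this contrast, so the counts describe the list.

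The difference between the responses of shoots and roots was fitted as an interaction of tissue and Ca2+. It was called for 25 of the 169 genes, all with a more negative response in shoots, beside 0.710% of all genes tested in that direction and 5.2% in the other. Its median log2 value was -1.28, against 0.08 over all genes. DESeq2 called 56 of the 169 genes, beside 2.01%. The rule used both sides of this contrast, and nothing is read from the counts. The number rested on single libraries, being 12 without LCS S6, 75 without LCS S7, 15 without LCS S8, 11 without ConS S13, 12 without ConS S15, 39 without ConS S16, 14 without LCR S2, 12 without LCR S3, 8 without LCR S4, 11 without ConR S9 and 13 without ConR S10. Over the single omissions, 4.29% to 9.1% of all genes were called in either direction, the highest share without LCS S7, against 5.91% with all libraries. For the remaining genes, the difference between the tissues did not pass the threshold.

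The 169 genes were mainly shoot genes. At 1 mM Ca2+, the ratio of ConR over ConS (with 0.5 CPM added to each mean) had a median of 0.0919 over the list and of 1.23 over the wider set of 21351 genes. It was at most 0.1 in 88 genes (52.1%), against 9.07% of the wider set. A further 61 genes (36.1%) had a ratio between 0.1 and 0.5, 19 genes one between 0.5 and 2, and 1 gene a ratio above 2. In ConR vs ConS, edgeR called 164 of the 169 genes lower in ConR, beside 23.7% of all genes tested, and 1 gene higher, beside 28.7%. The median log2 fold change was -4.33, against 0.10 over all genes. The rule used the ConS libraries and favours genes that are high in them. Its root limit also lets genes nearly absent from roots pass, because of the 0.5 CPM added. The shoot preference of the list is therefore a description too.

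The rule, which asked for a stronger fall in shoots than in roots, fixes a higher ratio of roots over shoots at low Ca2+ in every gene of the list, so the following values are a description. The ratio of LCR over LCS had a median of 0.211 over the list. In LCR vs LCS, edgeR called 146 genes lower in LCR, beside 22.7% of all genes tested, and 6 higher, beside 20%. The 6 genes were 3 without LCS S5, beside 17% of all genes, and 3 without LCS S8, beside 20.9%. Every LCR library lay below every LCS library in 129 genes, beside 15.7%, and every ConR library below every ConS library in 152 genes, beside 14.1%. In 11 genes, the mean CPM was lower in LCS than in LCR but higher in ConS than in ConR. These 11 genes had LCS means of 2.39 to 151 CPM and LCR means of 3.19 to 161 CPM, against ConS means of 5.29 to 316 CPM and ConR means of 3.90 to 231 CPM. The count rests on CPM, by which 152 of the 169 genes were higher in LCS than in LCR. By edgeR with TMM scaling, 159 had a log2 fold change below 0 in LCR vs LCS. The scaling thus decided the direction in most of the 11 genes.

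**Figure D4:**
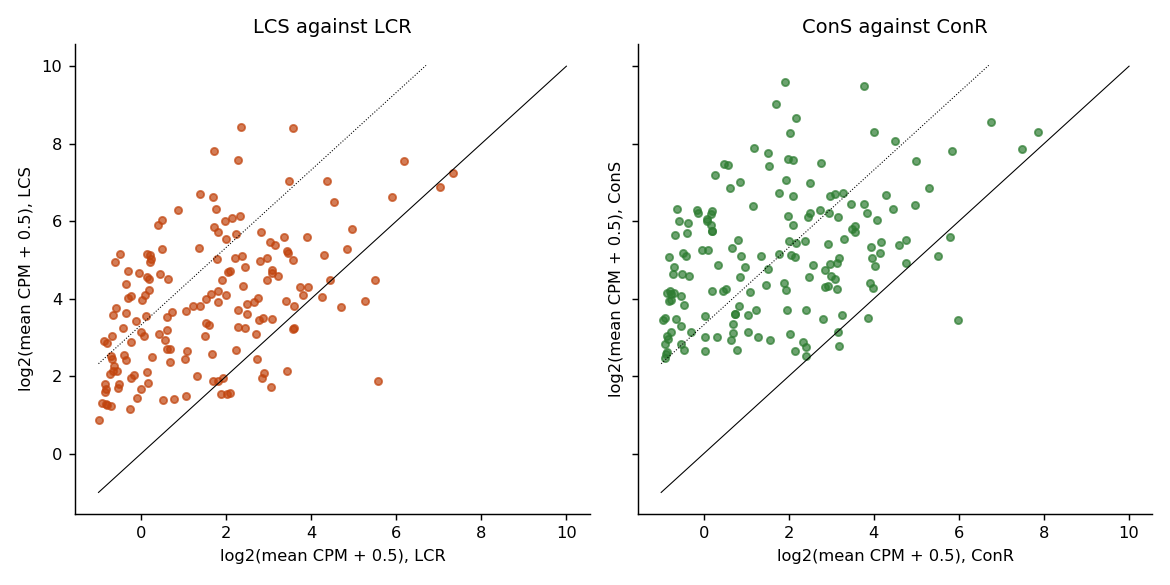
Each point is 1 of the 169 genes, with the log2(mean CPM + 0.5) of roots on the x axis and of shoots on the y axis, at low Ca2+ on the left and at control Ca2+ on the right; the solid line marks equal levels and the dotted line a 10-fold higher level in shoots. The cloud lies lower on the left, where 152 of the genes are above the solid line, against 163 on the right.

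The list was also divided by its root level, which enters the root ratio itself. In the 88 genes with a ConR to ConS ratio of at most 0.1, the median shoot level was 19.3 CPM (LCS) against 50.5 CPM (ConS), while the median root level was 0.645 CPM (LCR) against 0.644 CPM (ConR). Their shoot ratio had a median of 0.425 and their root ratio one of 1.00. In the 61 genes with a ratio between 0.1 and 0.5, the median shoot level was 12.3 CPM (LCS) against 26.7 CPM (ConS), while the median root level was 4.78 CPM (LCR) against 6.74 CPM (ConR). Their shoot ratio had a median of 0.460 and their root ratio one of 0.795, close to the lower limit set by the rule. In the genes outside the list the median root ratio was also higher in the first of these classes, 1.13 against 0.983. With root levels under 1 CPM in 54 genes of the list, the 0.5 CPM added to each mean pulls their root ratios towards 1.

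The arrangement of the LCS libraries went with the shoot preference, inside and outside the list. LCS S6 and LCS S8 lay below LCS S5 and LCS S7 in 80 of the 88 genes (90.9%) with a ConR to ConS ratio of at most 0.1, in 50 of the 61 genes with a ratio between 0.1 and 0.5 and in 10 of the 20 genes above 0.5. Among the other genes with at least 5 CPM in ConS, the shares were 52.3% of 1849 genes, 43.3% of 2711 genes and 18.9% of 16622 genes in the same classes. On TMM-scaled totals these shares were 49.1%, 44.2% and 32.4%, so that the classes outside the list lay closer together. The 1849 other genes with a ratio of at most 0.1 had a median log2 ratio to the ConS mean of -0.23 in LCS S5, -0.35 in LCS S6, -0.07 in LCS S7 and -0.82 in LCS S8. Their shoot ratio had a median of 0.798 and was below 1 in 1326 of them (71.7%). The libraries thus had the same order from low to high (S8, S6, S5, S7) in the medians of the listed and of the other shoot-preferring genes.

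All 13 genes with Un identifiers had a ConR to ConS ratio of at most 0.1, and all 13 had LCS S6 and LCS S8 below LCS S5 and LCS S7. In shoots their median level was 8.94 CPM (LCS) and 33.7 CPM (ConS), while their root levels had medians of 0.246 CPM (LCR) and 0.127 CPM (ConR). The shoot ratio had a median of 0.317 in these genes and of 0.453 in the 156 others, and 7 of the 20 lowest ratios of the list belonged to them. Of 5 pairs of listed genes with consecutive identifier numbers, 4 pairs had Un identifiers. Whether such neighbours are near-identical copies is not known here, and since only uniquely mapped reads were counted, the counts of copies would be uncertain.

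At the other end, 6 genes of the list had a higher mean CPM in ConR than in ConS. Their LCS means ran from 2.82 to 22.0 CPM and their ConS means from 6.37 to 48.1 CPM, while the LCR means were 6.7 to 46.8 CPM and the ConR means 8.47 to 62.7 CPM. Only 1 of them had LCS S6 and LCS S8 below LCS S5 and LCS S7. The extreme was Et_5A_040381, with 4.70, 3.28, 1.37 and 3.21 CPM in LCS S5 to S8, against 7.34, 7.99, 21.2 and 5.2 CPM in ConS S13 to S16. In roots it had 46.8 ± 3.1 CPM in LCR and 62.7 ± 15 CPM in ConR (SD, n = 4). Its control shoots overlapped with no low Ca2+ shoot library, but LCS S5 and ConS S16 were close, and ConS S15 was far above the others. Its log2 fold change in LCS vs ConS was -2.02, and -1.34 without ConS S15. The count of 6 genes rests on CPM without TMM scaling. By edgeR, which used that scaling, 168 of the 169 genes had a log2 fold change below 0 in ConR vs ConS. Only Et_5A_040381 lay above, at 1.92.

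The study's own calcium and metal genes give the named context. Of its 109 named genes in 5 lists, 87 had at least 5 CPM in ConS, 6 met the shoot conditions and 3 met the whole rule, at places 25, 35 and 115 of the 172 genes by shoot ratio. They are described here as genes outside the 169. CBP10 (Et_6B_049755), a calcium-binding protein gene, had 2.52, 10.4, 6.31 and 6.73 CPM in LCS S5 to S8, against 16, 13.8, 22.7 and 21.9 CPM in ConS S13 to S16. Its lowest LCS library was S5, unlike that of most genes in the list. In roots it had 4.37 ± 1.62 CPM in LCR and 5.24 ± 1.90 CPM in ConR.

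CaTA9 (Et_10A_001147), a calcium-transporting ATPase gene of the family that pumps Ca2+ out of the cytosol, had 42.4, 23.1, 40.5 and 27.8 CPM in LCS S5 to S8, against 96.9, 81.6, 90.8 and 76.7 CPM in ConS S13 to S16. In roots it had 61.6 ± 11.6 CPM in LCR and 77.4 ± 2.89 CPM in ConR. CDPK4 (Et_7A_052314), a calcium-dependent protein kinase gene, had 17.4, 11.6, 17.1 and 9.74 CPM in LCS S5 to S8, against 40.3, 30.5, 31.4 and 19.2 CPM in ConS S13 to S16, with 7.22 ± 1.61 CPM in LCR and 5.77 ± 1.17 CPM in ConR. Both had LCS S6 and LCS S8 below LCS S5 and LCS S7, as did most of the list. CaTA5-1, CaTA9-1 and CBP1 met the shoot conditions with ratios of 0.391, 0.284 and 0.395, but their root ratios of 0.547, 0.624 and 0.459 lay below the limit.

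**Figure D5:**
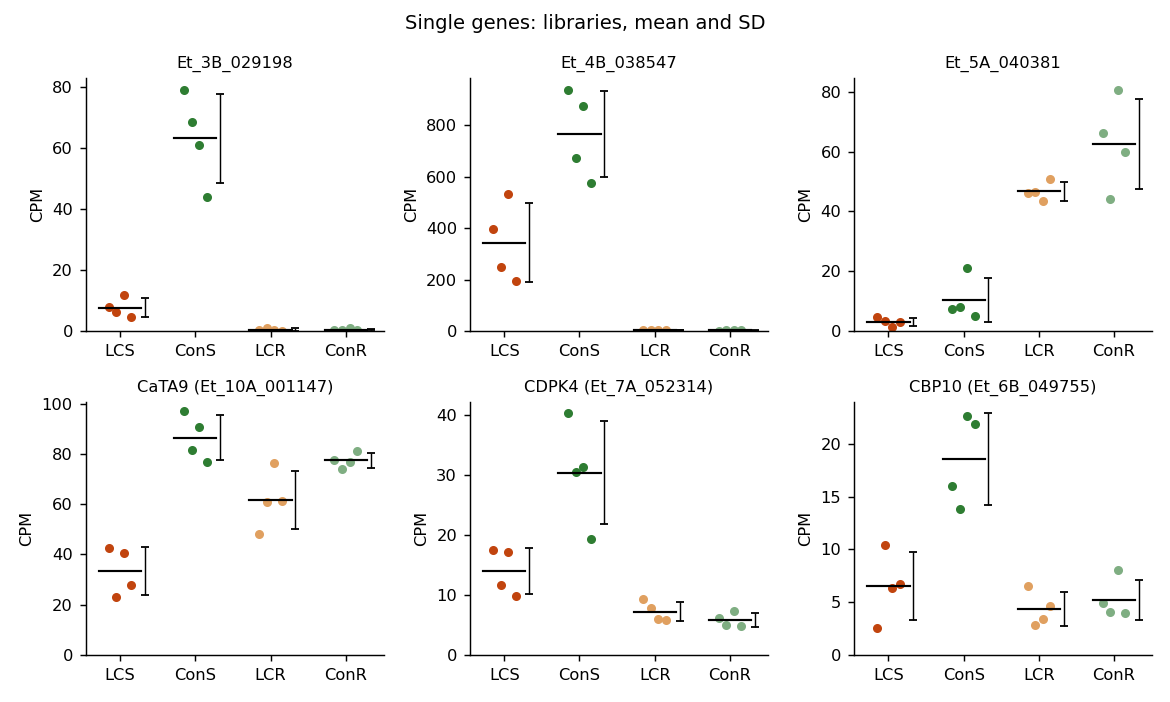
Points are the CPM of single libraries in LCS, ConS, LCR and ConR, with the mean as a line and the SD as a bar beside it (n = 4), for 3 of the 169 genes (top row) and for the 3 named genes that met the rule and were set aside (bottom row). As the rule required, every LCS point lies below every ConS point in all 6 panels. The LCR and ConR means differ by ratios of 0.748 to 1.35, within the limits of the rule.

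Over the whole lists, 33 of the 109 named genes were called lower and 15 higher in LCS vs ConS by edgeR, beside 9.04% and 16.7% of all genes tested. In LCR vs ConR, 13 were lower and 4 higher, beside 1.33% and 1.90% of all genes tested. The study chose these lists on the same samples. Of the 35 calcium signaling genes, 10 were lower and 6 higher in LCS than in ConS, and of the 34 calcium transporters 11 were lower and 4 higher. Of the 11 CNGCs (cyclic nucleotide-gated channels), 5 were lower and 0 higher, of the 10 GLRs (glutamate receptor-like channels) 3 were lower and 0 higher, and of the 19 Fe and metal transporters 4 were lower and 5 higher. No CNGC, GLR or metal transporter gene met the shoot conditions of the rule.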

How the data were processed

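The authors trimmed the reads with sickle, aligned them to the tef reference genome with hisat2 and ran htseq-count in reverse-strand mode, which kept uniquely mapped reads. The deposited table holds these raw counts. The methods name a kit without stating that it keeps strand, so that a gene and an antisense partner may not be told apart. Fold changes and calls are from edgeR 4.0.16 in R 4.3.3 (TMM scaling, quasi-likelihood test, 1 term per group over 16 libraries, genes with a count in at least 4 libraries, FDR below 0.05), with DESeq2 1.42.0 and limma 3.58.1 (voom) as alternatives. The steps were tested on simulated data. CPM in the text is on column sums. Genes to which DESeq2 gave no adjusted p were not called. The 169 genes and the lists were chosen with earlier results of these data known. Genes named by identifier are those with the lowest shoot ratio, the largest loss in CPM and the highest and lowest ConR to ConS ratio, and the study's named genes that met the rule. The genome and its sequences were not used here.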

Additional observations from a re-analysis of the deposited data

Results flagged for a closer look

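Et_3B_029198 had only 5 to 13 reads in a ConR library, close to the detection limit. Its 0.914 CPM in ConR S11 lay far above the other ConR libraries relative to their range. Chance marks about 5% of groups by this measure, and over the 169 genes and 4 groups a library stood apart in 28 cases (4.14%), 7 of them ConR S11.

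The response to low Ca2+ differed between shoots and roots in 25 of the 169 genes by the edgeR interaction, beside 0.710% of all genes tested that were lower and 5.2% that were higher. The rule used this contrast. Among the genes printed by identifier, the interaction was -3.23 on the log2 scale for Et_3B_029198 and -1.83 for Et_4B_038547, while that of Et_5A_040381 was -1.60 and did not pass (edgeR adjusted p = 0.101).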

How the results depend on the processing

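The number of the 169 genes called lower in LCS vs ConS (167) was 160 to 169 when single libraries were left out. It was 153 to 169 over the other planned settings and 101 without LCS S6 and S8 together. The shares of all genes tested were 4.63% to 11.1%, 2.36% to 13.8% and 0.985%, in the same order. The interaction count (25) was 56 with DESeq2, beside 9.08% of all genes in either direction. At an adjusted p below 0.01 it was 5, beside 2.41%. It was 8 to 75 with 1 library left out, beside 4.29% to 9.1%, and 8 without LCS S6 and S8 together, beside 2.7%. In LCR vs ConR the count of 0 was 2 with only the 8 root libraries, beside 8.17% of all genes. The 6 genes called higher in LCR vs LCS were 1 at an adjusted p below 0.01, beside 14.5% of all genes. They were 3 when the log2 fold change also had to reach 1, beside 15.1%. With 1 library left out they were 3 to 6, beside 17% to 20.9%. The rule found 93 to 165 of the 169 genes again with 1 library left out, 134 with counts thinned to the smallest total and 49 without LCS S6 and S8 together. Where it found 196 to 198 genes, the limit of 200 genes may have kept some of the 169 out. The causes were not tested. Counts for ConR vs ConS stayed between 157 and 165 lower genes, beside 18.4% to 28.9% of all genes. They stayed at 1 higher gene, beside 23.1% to 36%. Median log2 fold changes of the list were computed for LCS vs ConS and LCR vs ConR, and kept their sign under each setting tried. The rule required the fall in LCS vs ConS and bounded the ratio in LCR vs ConR, so these signs are a description. No paired analysis was possible because the S numbers run on across the groups and the labels tie no library to a plant or experiment shared with another group. The study mentions independent experiments without assigning libraries to them.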
